A study of Mus musculus with 29 samples.

Results

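The genes described here are 9 members of the insulin-like growth factor (IGF) system in mouse nephron progenitor cells (NPCs): the ligand gene Igf1, the receptor genes Igf1r and Igf2r, and the binding protein genes Igfbp2 to Igfbp7. They were chosen by symbol, and all 9 were among the 23918 usable symbols of the deposited table. Expression was deposited as RPKM (reads scaled by transcript length and library size) for 29 RNA sequencing libraries from mice of a C57BL/6 and 129 hybrid background. All 29 libraries carry the genotype Six2-GCE, a reporter and inducible Cre allele driven by Six2, the transcription factor gene that marks NPCs and by which they are sorted. The 9 withdrawal libraries are labelled E13.5 and hold total RNA of cultures that lacked BMP7, the GSK3 inhibitor CHIR, heparin or the ROCK inhibitor Y27632 for 4 or 8 days or, in a single library, LIF for 8 days; each condition has 1 library. No library of the complete medium was among them, so heparin and Y27632 withdrawal serve as the comparison. NPC lines, grown as aggregates in a medium named NPSR, were derived from kidneys of embryonic days E11.5 and E13.5 (early) and of E16.5 and postnatal day P1 (late). Each line was sequenced once at passage 80 (P80) and once at passage 20 (P20), so each age of origin is 1 line. Six2-negative kidney cells of E12.5 gave 2 libraries, and primary NPCs gave 2 libraries at each of these ages and at E12.5. The labels do not say that libraries of a group came from separate animals or cultures, so the p-values rest on a spread among samples that may be partly or wholly technical.

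IGF1 and IGF2 are secreted growth factors that act through the receptor tyrosine kinase encoded by Igf1r. Igf2r encodes the cation-independent mannose 6-phosphate receptor, which takes IGF2 to the lysosome and is transcribed from the maternal allele in the mouse. The IGF binding proteins hold the ligands in the extracellular space and can limit or prolong their action. IGFBP6 prefers IGF2, and IGFBP7 is a more distant relative that binds IGFs weakly. In the developing kidney IGF2 is the abundant ligand, and nephron progenitors lie beside stromal cells, vessels and the ureteric bud, which make matrix and binding proteins of their own.

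The promoters of 6 members are shown because the results below turn on their transcripts: Igf1, Igfbp3 and Igfbp5 after removal of BMP7 or CHIR, Igfbp2 after removal of CHIR or LIF, Igf2r in lines, and Igfbp7 with age and after removal of LIF. Each line holds the 250 bases before the annotated start, 5′ to 3′ on the gene's strand, from RefSeq on GRCm38.p6, a later build than the mm9 named for the expression data. The windows are chr10:87860861-87861110 on the plus strand for Igf1, chr11:7213924-7214173 on the minus strand for Igfbp3, chr1:72874866-72875115 on the minus strand for Igfbp5, chr1:72824230-72824479 on the plus strand for Igfbp2, chr17:12769707-12769956 on the minus strand for Igf2r and chr5:77408046-77408295 on the minus strand for Igfbp7. Capitals mark matches to a motif searched on both strands.
Igf1: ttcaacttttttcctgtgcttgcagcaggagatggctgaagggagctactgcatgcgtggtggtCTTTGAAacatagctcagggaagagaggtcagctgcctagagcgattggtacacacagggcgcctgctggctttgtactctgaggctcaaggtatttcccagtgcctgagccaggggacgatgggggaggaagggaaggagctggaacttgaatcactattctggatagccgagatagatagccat
Igfbp3: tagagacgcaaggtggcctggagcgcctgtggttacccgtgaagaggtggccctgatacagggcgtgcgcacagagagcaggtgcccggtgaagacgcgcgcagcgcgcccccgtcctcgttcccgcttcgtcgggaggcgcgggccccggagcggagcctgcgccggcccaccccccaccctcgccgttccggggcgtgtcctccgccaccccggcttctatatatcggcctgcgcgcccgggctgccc
Igfbp5: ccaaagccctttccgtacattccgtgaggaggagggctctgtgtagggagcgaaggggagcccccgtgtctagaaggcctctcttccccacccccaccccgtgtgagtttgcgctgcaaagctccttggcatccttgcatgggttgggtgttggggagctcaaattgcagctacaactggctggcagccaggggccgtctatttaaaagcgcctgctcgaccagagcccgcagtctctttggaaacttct
Igfbp2: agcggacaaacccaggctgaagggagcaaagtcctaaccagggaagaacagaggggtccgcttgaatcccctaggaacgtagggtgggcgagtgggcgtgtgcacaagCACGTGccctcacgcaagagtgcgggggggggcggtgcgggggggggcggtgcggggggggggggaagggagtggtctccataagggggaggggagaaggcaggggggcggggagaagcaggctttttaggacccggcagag
Igf2r: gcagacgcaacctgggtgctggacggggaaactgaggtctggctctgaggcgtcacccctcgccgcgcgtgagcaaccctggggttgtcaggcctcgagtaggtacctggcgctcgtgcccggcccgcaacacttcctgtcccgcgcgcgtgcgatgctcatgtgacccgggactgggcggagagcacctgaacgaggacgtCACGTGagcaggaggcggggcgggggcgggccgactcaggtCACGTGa
Igfbp7: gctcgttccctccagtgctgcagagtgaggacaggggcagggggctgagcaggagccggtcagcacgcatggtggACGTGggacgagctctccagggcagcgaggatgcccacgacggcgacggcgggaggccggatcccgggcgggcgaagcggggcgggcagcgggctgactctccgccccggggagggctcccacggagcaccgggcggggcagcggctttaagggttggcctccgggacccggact

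All 9 members had a RefSeq promoter, and Igfbp2 had 2. The capitals in Igf1 are CTTTGAA, a TCF/LEF motif that 4.46% of 32851 RefSeq promoter windows of 250 bases held on either strand. In Igfbp2 and Igf2r they are CACGTG, a palindrome in which ACGTG, the core of hypoxia-inducible factor sites, overlaps itself on both strands, and 16.6% of windows held ACGTG. Igf2r had this palindrome at 2 places, beginning 48 and 7 bases before the start, and Igfbp2 at 1 place, 142 bases before it. In Igfbp7 the capitals are ACGTG alone, 175 bases before the start. Of the members not shown, Igfbp4 and Igfbp6 had TATAAA (12.4% of windows) 28 and 148 bases before the start. The Igfbp3, Igfbp5 and Igf1r windows and the other Igfbp2 promoter held none of the 7 motifs searched, which also included CTTTGTT (5.03% of windows), the SMAD palindrome GTCTAGAC (0.167%), the STAT motif TTCNNNGAA (7.02%) and the FoxO motif GTAAACA (3.17%). Igfbp3 and Igfbp5, both higher without BMP7 or CHIR, differed in base composition, with 73.2% G or C and 32 CpG dinucleotides in the Igfbp3 window and 58.8% and 10 in the Igfbp5 window. A match to these letters is a description of the window, not a binding site.

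Depth, estimated from the spacing of low values, was 6.7 to 16.8 M reads (M for mega) in withdrawal libraries, 15.3 to 24.1 in P80 lines, 6.6 to 20.3 in P20 lines, 32.7 and 20.8 in Six2-negative cells and 11.6 to 32.6 in primary NPCs. By this estimate the fewest reads behind a value were about 7 for Igf1, in the E16.5 line at P80, and 6 for Igfbp6, in the P1 line at P20. Markers of NPCs (11 cap mesenchyme genes) summed to 329 to 877 RPKM in withdrawal libraries, 751 to 1350 in lines, 114 and 98.8 in Six2-negative cells and 816 to 1525 in primary NPCs. The Six2-negative libraries are labelled NPC as a cell type, and these sums go against that label. Within the primary NPCs, 3 libraries stood apart from the other library of their age. E12.5 library 1 had an endothelial marker sum (10 genes) of 155 RPKM, against 20.5 in library 2. E16.5 library 1 had 588 against 42.5, with macrophage markers (8 genes) at 255 against 38.3 and stromal markers (10 genes) at 665 against 255. P1 library 1 had tubule markers (8 genes) at 2345 against 219 and macrophage markers at 494 against 73.5. For members called in a comparison that uses these libraries, or called only without them, the result without them is given below. Where groups are single ages, such a fit leaves 1 library at each of E12.5, E16.5 and P1. Its p-values then take no spread from those groups, and the same holds for any group left with 1 library. The deposited table falls into sets of 18 and 11 libraries by a shift in its last lines. The larger set holds all P80 and withdrawal libraries, and the smaller all P20 libraries, so passage and set cannot be told apart.

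Among the 9 members a binding protein gene was the most abundant in every library, and Igf1r varied least. The 9 withdrawal libraries hold total RNA and the 20 others polyadenylated RNA, so ranges over all 29 describe levels only. On the RPKM scale, which allows genes to be compared per length, Igfbp4 was the most abundant member in all but 2 libraries, from 117 RPKM in the E16.5 line at P80 to 1515 after 8 days without CHIR, with a median of 309.6. Igfbp2 had a median of 133 RPKM (34.8 to 1167), Igfbp5 of 65.0 (19.2 to 446) and Igf2r of 23.7 (6.96 to 53.7). Igf1r kept within 5.89 to 12.7 RPKM across all 29 libraries, the narrowest range of the 9. Medians were 5.02 RPKM for Igfbp7 (0.366 to 384), 4.36 for Igfbp3 (1.57 to 112), 2.60 for Igfbp6 (0.581 to 24.7) and 0.411 for Igf1 (0.0492 to 27.4). Igfbp7 and Igf1 had the widest ranges. The 2 libraries in which another member exceeded Igfbp4 were P1 NPC library 1, led by Igfbp7, and LIF withdrawal, led by Igfbp2.

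**Figure D1:**
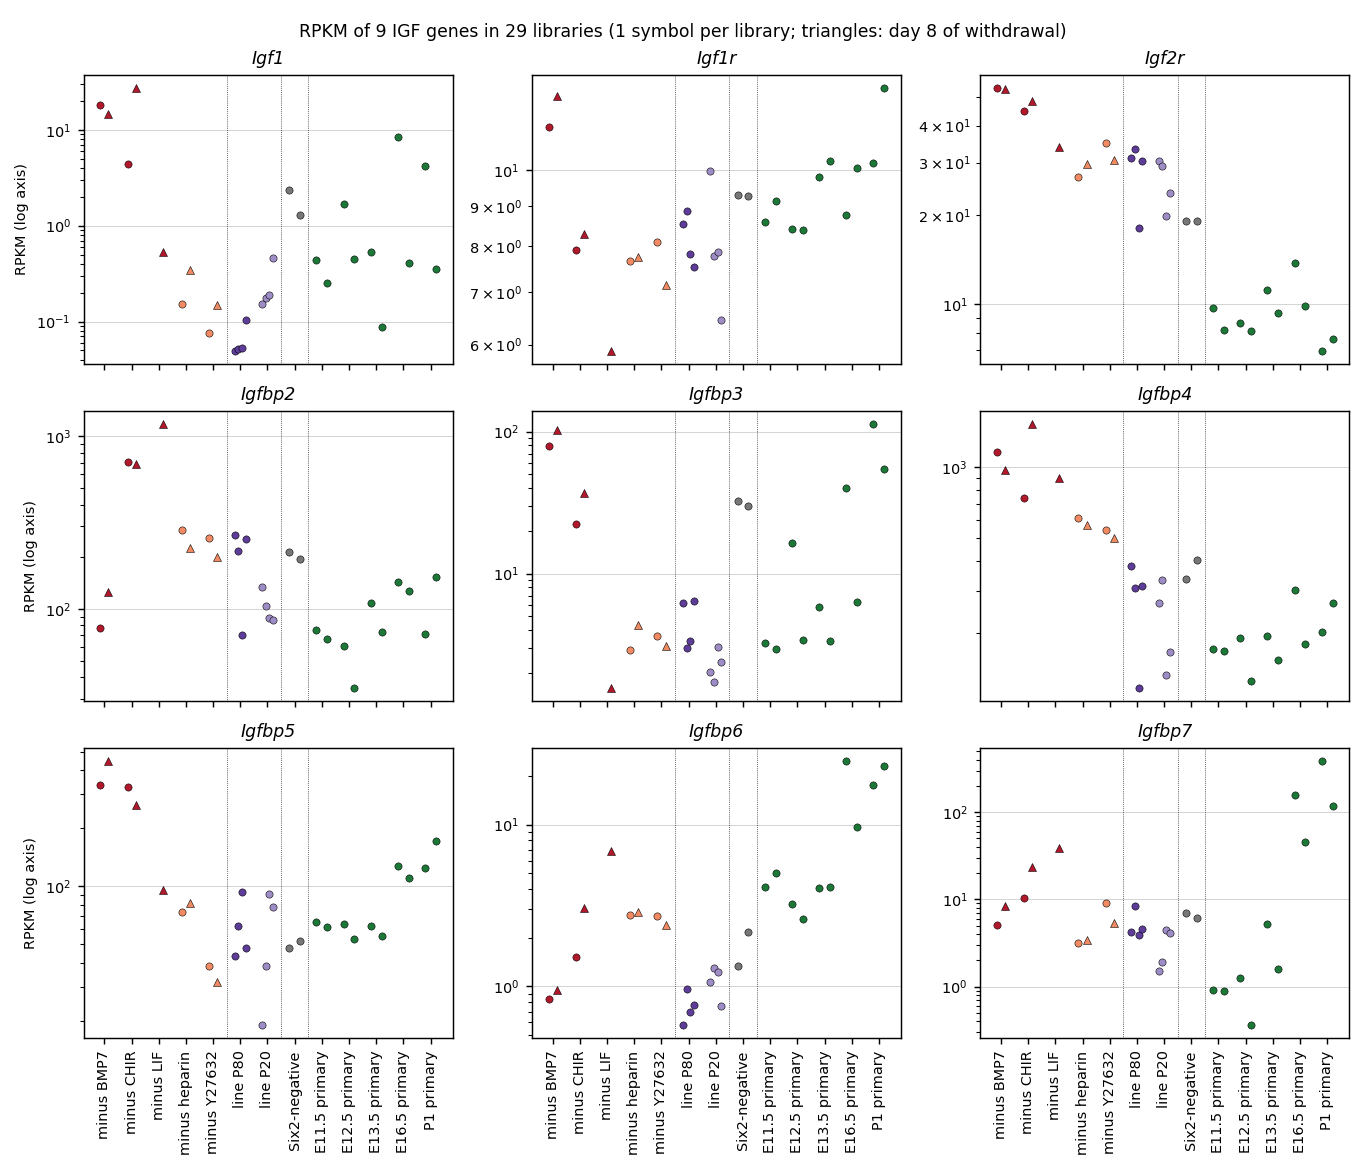
RPKM of each of the 9 genes (log axes, 1 symbol per library) in withdrawal cultures, lines, Six2-negative cells and primary NPCs; circles of withdrawal are day 4 and triangles day 8. Igfbp7 spans 0.366 to 384 RPKM and Igf1r only 5.89 to 12.7 RPKM, and Igf1 is above 4 RPKM in BMP7 and CHIR withdrawal and in E16.5 and P1 primary libraries 1.

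The mixture of binding protein transcripts differed between groups. The 6 genes summed to 1650 and 1661 RPKM without BMP7, 1814 and 2532 without CHIR and 2211 without LIF, against 742 to 979 without heparin or Y27632. In lines the sum was 289 to 707 RPKM, in Six2-negative cells 639 and 690, and in primary NPCs 219.9 to 378 up to E13.5 and 477 to 911 from E16.5 on. Igfbp4 made up 51.1 to 57.0% of the sum in the 6 primary libraries up to E13.5, and 22.0 and 33.9% in the P1 libraries. Igfbp7 gave 42.2 and 14.96% of the P1 sums, against 0.289 and 0.294% at E11.5. Without LIF, Igfbp2 gave 52.8% of the sum, and without BMP7 it gave 4.68 and 7.55%. Across all 29 libraries Igfbp6 never exceeded 3.10%.

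**Figure D2:**
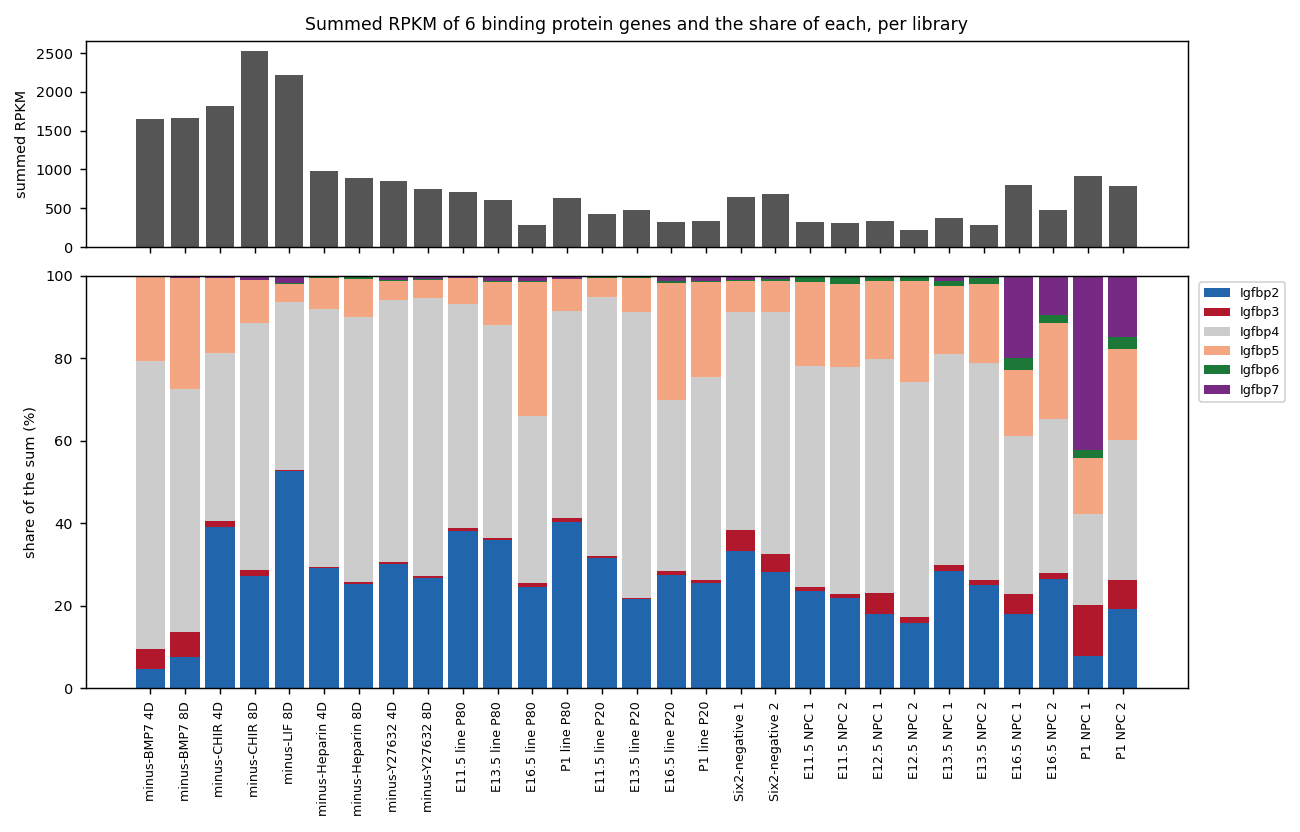
Summed RPKM of Igfbp2 to Igfbp7 per library (top, linear axis from 0) and the share of each gene in that sum (bottom, percent). Igfbp4 and Igfbp2 fill most bars of lines and withdrawal cultures, and Igfbp7 reaches 42.2% in P1 NPC library 1.

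Igf1, the ligand, was under 1 RPKM in all 8 line libraries and in 7 of 10 primary libraries, and was far higher in cultures without BMP7 or CHIR, described with the withdrawals. It had 0.0492, 0.0512, 0.0532 and 0.105 RPKM in the 4 P80 lines, ordered from E11.5 to P1 origin, and 0.151, 0.178, 0.189 and 0.462 RPKM in the P20 lines in the same order. Six2-negative libraries had 2.34 and 1.28 RPKM. Primary NPC libraries 1 and 2 had 0.434 and 0.249 RPKM at E11.5, 1.67 and 0.447 at E12.5, 0.527 and 0.0885 at E13.5, 8.30 and 0.411 at E16.5, and 4.21 and 0.353 at P1. At each age library 1 was the higher, and the 3 highest primary values are those of the 3 libraries with raised markers of other cells, whose part in the result was not tested. Igf1 was called in no comparison with all libraries included and a pseudocount of 1. Its differences were -0.92 ± 0.48 (log2 scale, SE) in P80 lines and -0.70 ± 0.48 in P20 lines against primary NPCs (adjusted p = 0.14 and 0.264). With a pseudocount of 0.1, the P80 difference was -2.31 with an adjusted p of 0.0327. Without E16.5 or P1 library 1, Igf1 did not reach 1 RPKM in 2 libraries of that fit and was not tested. The other ligand, Igf2, was far more abundant, at 42.0 to 473 RPKM in lines, 1068 and 1037 in Six2-negative cells and 149 to 701 in primary NPCs. The E16.5 line had 42.0 RPKM of Igf2 at P80 and 43.1 at P20, and each of the other 6 line libraries had at least 313.

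Igf1r, the signalling receptor, passed no test. Its 9 withdrawal values ran from 5.89 RPKM without LIF to 12.4 on day 8 without BMP7, its line values from 6.44 to 9.98 and its primary values from 8.39 to 12.7, the highest of which was P1 library 2. Igf2r, the scavenging receptor, separated lines from freshly sorted NPCs completely. It had 31.1, 33.3, 18.03 and 30.3 RPKM in P80 lines in order of age of origin, and 30.4, 29.1, 19.8 and 23.7 RPKM in P20 lines in the same order. Primary libraries of these 4 ages had a lowest value of 6.96, a median of 9.54 and a highest of 13.8 RPKM, so no line library overlapped a primary one. In withdrawal cultures Igf2r had 53.7 and 53.0 RPKM without BMP7 and 44.9 and 48.6 without CHIR on days 4 and 8, and 34.0 without LIF, against 26.8 to 34.8 without heparin or Y27632. Igf2r is overlapped by an antisense transcript, Airn. The sources used here do not state whether counting used strand, so reads of both cannot be told apart where they overlap.

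Among primary NPCs, 4 of the 6 binding protein genes rose between E11.5 and P1: Igfbp7, Igfbp3, Igfbp6 and Igfbp5. These 4 of 9 members were called by limma at an adjusted p under 0.05, where 35.1% of 13574 genes tested were called and 17.5% were called higher. The median log2 difference of the 9 members was 0.99, against 0.04 over all genes tested. Neither the ligand nor a receptor passed.

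Igfbp7, the distant relative, had 384 and 118 RPKM in P1 libraries 1 and 2, against 0.924 and 0.895 RPKM at E11.5. Between these ages it had 1.24 and 0.366 RPKM at E12.5, 5.28 and 1.58 at E13.5 and 158 and 45.0 at E16.5. Every library of E16.5 and P1 was above every library of E11.5 to E13.5, while E16.5 and P1 overlapped each other. The 2 libraries of each age from E12.5 on lay 3.26-fold to 3.52-fold apart, with library 1 higher. The difference of P1 from E11.5 was 6.81 ± 0.70 (log2 scale, SE; adjusted p = 0.000771), and the step of E16.5 over E13.5 was 4.41 ± 0.70 (adjusted p = 0.0387). That step was called for 0.619% of genes, 0.523% higher, and for 2 of 9 members, Igfbp7 and Igfbp5. Without E16.5 library 2, the difference of Igfbp6 was 2.33. With the marker-rich libraries left out, that of Igfbp7 was 3.51 and that of Igfbp5 was 0.91, each with 1 E16.5 library. Both calls were lost in 9 of 12 fits that left out 1 library, with adjusted p up to 0.354 for Igfbp7 and 0.437 for Igfbp5, each without E13.5 library 2.

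Igfbp3, the main carrier of IGFs in serum, had 112 and 54.9 RPKM at P1, against 3.23 and 2.96 RPKM at E11.5. It stood at 16.49 and 3.38 RPKM at E12.5, 5.80 and 3.33 at E13.5, and 39.9 and 6.34 at E16.5. Library 1 of E12.5 and of E16.5 was far above its partner, and these are the libraries with high endothelial marker sums. Both P1 libraries were above all 8 others, with endothelial sums of 122 and 54.6 RPKM, against 588 in E16.5 library 1. The part of endothelial cells in the Igfbp3 values was not tested. The P1 difference was 4.28 ± 0.82 (adjusted p = 0.00673), and the step of P1 over E16.5 was 2.20 ± 0.82 (adjusted p = 0.125). With the 3 marker-rich libraries left out, an alternative chosen after seeing the data, the P1 difference from E11.5 was 3.77 and that from E16.5 was 2.93. The latter sets 1 library against 1.

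Igfbp6, which favours IGF2, had 17.5 and 23.0 RPKM at P1, against 4.10 and 5.01 RPKM at E11.5 (1.93 ± 0.36, adjusted p = 0.00633). It was lowest at E12.5, with 3.22 and 2.60 RPKM, and had 4.08 and 4.13 at E13.5 and 24.7 and 9.62 at E16.5. The 4 late libraries did not overlap the 6 early ones, and the 2 late ages overlapped each other. Igfbp5, a binding protein with affinity for matrix, had 125 and 173 RPKM at P1, against 65.0 and 61.3 RPKM at E11.5 (1.21 ± 0.17, adjusted p = 0.00239). The 2 libraries of each age lay within 1.38-fold of each other, with 63.6 and 53.4 RPKM at E12.5, 62.1 and 55.4 at E13.5 and 127 and 111 at E16.5. Igfbp5 thus lay at 53.4 to 65.0 RPKM in 6 early libraries and at 111 to 173 RPKM in 4 late ones.

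The 5 members that did not pass between P1 and E11.5 moved less. Igfbp2 had 71.0 and 152 RPKM at P1, overlapping 75.5 and 66.5 at E11.5. With the marker-rich libraries left out, which leaves P1 library 2, its difference was 1.09. Igfbp4 had 201 and 267 RPKM, against 171 and 168 (0.45 ± 0.29, adjusted p = 0.245). Igf1r differed by 0.33 ± 0.14 (adjusted p = 0.0889), Igf1 by 0.99 ± 0.86 (adjusted p = 0.386), and Igf2r by under 0.3 in size. A test for any difference among the 5 ages called 24.5% of genes and the same 4 members, Igfbp3 with an adjusted p of 0.0295. Igfbp3 lost that call in 7 of 12 fits that left out 1 library, with adjusted p up to 0.104 without P1 library 1. Igfbp2 gained it without P1 library 1 or 2 and with the marker-rich libraries left out, fits in which P1 has 1 library. Between P1 and E16.5, where 6.48% of genes were called, limma called 0 of 9 members. At an unadjusted p under 0.05 there were 2, Igfbp3 and Igf2r (-0.61 ± 0.17, adjusted p = 0.0657), and 3933 of 13574 genes. Without P1 library 2, which leaves 1 P1 library, the Igf2r difference was -0.67.

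Some markers of other cells rose over the same interval in the same libraries. At P1, 6 of 10 stromal, 6 of 7 tested tubule and 3 of 8 ureteric bud markers were called higher than at E11.5. So were 3 of 6 early nephron, 2 of 7 erythroid and 1 of 3 tested podocyte markers. Calls were 0 of 10 for endothelial and 0 of 8 for macrophage markers. Of 11 cap mesenchyme markers 2 were called higher and 4 lower. In P1 libraries 1 and 2 the stromal sum was 402.5 and 361 RPKM, against 167.5 and 197 at E11.5, and the tubule sum was 2345 and 219, against 3.803 and 5.08. The endothelial sum was 122 and 54.6 RPKM, against 32.2 and 36.5, and the macrophage sum 494 and 73.5, against 39.0 and 29.8. The part of these cells in the binding protein values was not tested. With the 3 marker-rich libraries left out, P1 has 1 library. Its differences from E11.5 were then 5.96 for Igfbp7, 3.77 for Igfbp3, 2.11 for Igfbp6 and 1.44 for Igfbp5. In bulk samples, fewer cells of a type and less RNA per cell cannot be told apart.

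Six2-negative cells of E12.5, the kidney cells other than NPCs, had more Igfbp2, Igfbp4 and Igf2r than NPCs of that age. These 3 of 9 members were called, all higher, where 13.6% of 13574 genes were called and 9.28% were called higher. Igfbp2 had 213 and 195 RPKM in Six2-negative libraries, against 60.9 and 34.8 RPKM in E12.5 NPCs (2.12 ± 0.37, adjusted p = 0.00706). Igf2r had 19.1 RPKM in each Six2-negative library, against 8.63 and 8.15 RPKM in NPCs (1.10 ± 0.17, adjusted p = 0.0048). Igfbp4 had 337 and 405 RPKM, against 190 and 125 RPKM (1.25 ± 0.29, adjusted p = 0.0235). Of the 9 members only Igf1 overlapped between the groups, so lack of overlap does not set these 3 apart. With the marker-rich libraries left out, which leaves 1 E12.5 NPC library, the differences were 2.51 for Igfbp2, 1.14 for Igf2r and 1.55 for Igfbp4. Igf2r was called in all 12 fits that left out 1 library, while Igfbp2 lost its call without E12.5 library 2 or Six2-negative library 2, and Igfbp4 without any of these or Six2-negative library 1. The authors' deposited table of NPC signature genes lists Igf2r, Igfbp2 and Igfbp7 of the 9 members.

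Igfbp3 and Igfbp7 did not pass in this comparison. Igfbp3 had 32.5 and 29.9 RPKM in Six2-negative libraries, against 16.49 and 3.38 RPKM in NPCs (1.88 ± 0.82, adjusted p = 0.182). Igfbp7 had 6.97 and 6.17 RPKM, against 1.24 and 0.366 RPKM (2.11 ± 0.70, adjusted p = 0.0843). With the marker-rich libraries left out, among them E12.5 library 1, the differences were 2.88 for Igfbp3 and 2.47 for Igfbp7. Igfbp7 was called with a pseudocount of 0.1 (3.08, adjusted p = 0.037) and in each of 4 fits without 1 library of E16.5 or P1. Igfbp5 and Igfbp6 were lower on average in Six2-negative cells and did not pass. Igfbp5 had 47.8 and 51.9 RPKM, against 63.6 and 53.4 RPKM, and Igfbp6 had 1.34 and 2.18 RPKM, against 3.22 and 2.60 RPKM (-0.52 ± 0.36, adjusted p = 0.408). In the Six2-negative cells 8 of 10 stromal, 7 of 7 erythroid and 4 of 8 ureteric bud markers were called higher and 11 of 11 cap mesenchyme markers lower.

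Between lines and primary NPCs of the same ages, a receptor gene and some binding protein genes were called. At P20, limma called 4 of 9 members, Igf2r higher and Igfbp3, Igfbp5 and Igfbp6 lower, where 36.1% of 13612 genes were called, 14.5% higher and 21.6% lower. At P80, where 39.3% of genes were called, 15.3% higher and 24% lower, there were 2 called members, Igf2r higher and Igfbp6 lower. The count of members is near the share over all genes at P20 and below it at P80. Both passages were set against the same 8 primary libraries. Igf2r averaged 28.2 ± 6.90 RPKM at P80 (SD, n = 4) and 25.8 ± 4.90 at P20 (n = 4), against 9.59 ± 2.17 in primary NPCs (n = 8). Its differences were 1.45 ± 0.18 (adjusted p = 5.71e-05) and 1.34 ± 0.18 (adjusted p = 0.000101). Within the set of libraries each passage belongs to, with 4 lines and 4 primary libraries, they were 1.55 (adjusted p = 0.00673) and 1.25 (adjusted p = 0.0341).

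Igfbp6 fell in every line. It had 0.581, 0.960, 0.695 and 0.766 RPKM in P80 lines in order of age of origin and 1.07, 1.31, 1.23 and 0.753 RPKM in P20 lines. The 8 primary libraries had a lowest value of 4.08, a median of 7.32 and a highest of 24.7 RPKM, with no overlap. The differences were -2.51 ± 0.38 (adjusted p = 0.000264) at P80 and -2.26 ± 0.38 (adjusted p = 0.000572) at P20, and within the library sets -2.43 (adjusted p = 0.0118) and -2.34 (adjusted p = 0.0483). The pseudocount of 1 shrinks folds at these levels.

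Igfbp3 and Igfbp5 were lower at P20 on average but overlapped with primary NPCs. Igfbp3 had 2.03, 1.72, 3.02 and 2.37 RPKM in P20 lines, against a lowest value of 2.96, a median of 6.07 and a highest of 112 RPKM in primary NPCs (-2.02 ± 0.65, adjusted p = 0.0282). Its P80 values were 6.19, 3.00, 3.35 and 6.37 RPKM, and the P80 difference did not pass (-1.26 ± 0.65, adjusted p = 0.141). All 8 line values lay at or below 6.37 RPKM, and the primary libraries above that were 1 of E16.5 and both of P1. Igfbp5 had 19.2, 38.7, 91.1 and 78.5 RPKM at P20, against a median of 88.0 RPKM in primary NPCs (-0.88 ± 0.24, adjusted p = 0.0126), and 43.5, 61.9, 93.5 and 47.9 RPKM at P80 (-0.60 ± 0.24, adjusted p = 0.0667). Within the library set neither P20 call held (adjusted p = 0.107 for Igfbp3 and 0.0847 for Igfbp5). Igfbp3 also lost its call without P1 library 2, or without the P20 line of E16.5 or of P1, and Igfbp5 lost it without the P20 line of E11.5. At P80 Igfbp5 was called without the P20 library of the E11.5 line (adjusted p = 0.0357) or the P80 library of the E13.5 line (adjusted p = 0.0413). With the marker-rich libraries left out, all 4 P20 calls and both P80 calls held. Some markers of other cells were lower in lines too: 5 of 9 tested stromal, 4 of 8 tubule and 3 of 8 macrophage markers were called lower at P20 and 4, 5 and 4 at P80. Early nephron markers were called lower for 5 of 6 and cap mesenchyme markers for 4 of 11 at each passage. Of 10 endothelial markers 1 was called lower at P20, and 1 higher and 1 lower at P80. Of 3 podocyte markers tested, 1 was higher and 1 lower at each passage. The stromal sum was 69.6 to 133 RPKM in lines and 157 to 665 RPKM in the 10 primary libraries. The median endothelial sum was 82.4 RPKM in lines and 40.6 in those 10. The part of other cells in the result was not tested.

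Igfbp2, Igfbp4 and Igfbp7 did not pass against primary NPCs at either passage. Igfbp2 had 269, 216, 70.8 and 253 RPKM in P80 lines in order of age of origin and 133, 104, 88.6 and 86.4 RPKM in P20 lines, against a lowest value of 66.5, a median of 91.5 and a highest of 152 RPKM in primary NPCs. The P80 lines of 3 origins were above every primary library, and the E16.5 line was not (0.89 ± 0.36, adjusted p = 0.0661, and 1.41 with adjusted p = 0.00218 without that line's library). It was also called without E16.5 NPC library 1 (1.014, adjusted p = 0.0377) and under median-of-ratios scaling (0.97, adjusted p = 0.0491). Igfbp4 had 383, 309.6, 117 and 316 RPKM in P80 lines and 266, 335, 133 and 167 RPKM in P20 lines, with the E16.5 line lowest at both passages. Igfbp7 had 4.21, 8.43, 3.88 and 4.60 RPKM in P80 lines and 1.51, 1.90, 4.41 and 4.16 RPKM in P20 lines. Of these 8 values 7 lay within the range of the early primary libraries (0.895 to 5.28 RPKM), and all were below the late ones (45.0 to 384 RPKM). The difference was -1.68 ± 1.013 at P80 (adjusted p = 0.204) and -2.36 ± 1.013 at P20 (adjusted p = 0.086). Between P80 and P20, paired by line, limma called 0 of 8 tested members and 0% of 12129 genes, with 2 members, Igfbp2 and Igfbp3, and 1482 genes at an unadjusted p under 0.05. Igfbp2 differed by 0.82 ± 0.29 and Igfbp3 by 0.76 ± 0.22 (adjusted p = 0.406 for each).

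**Figure D3:**
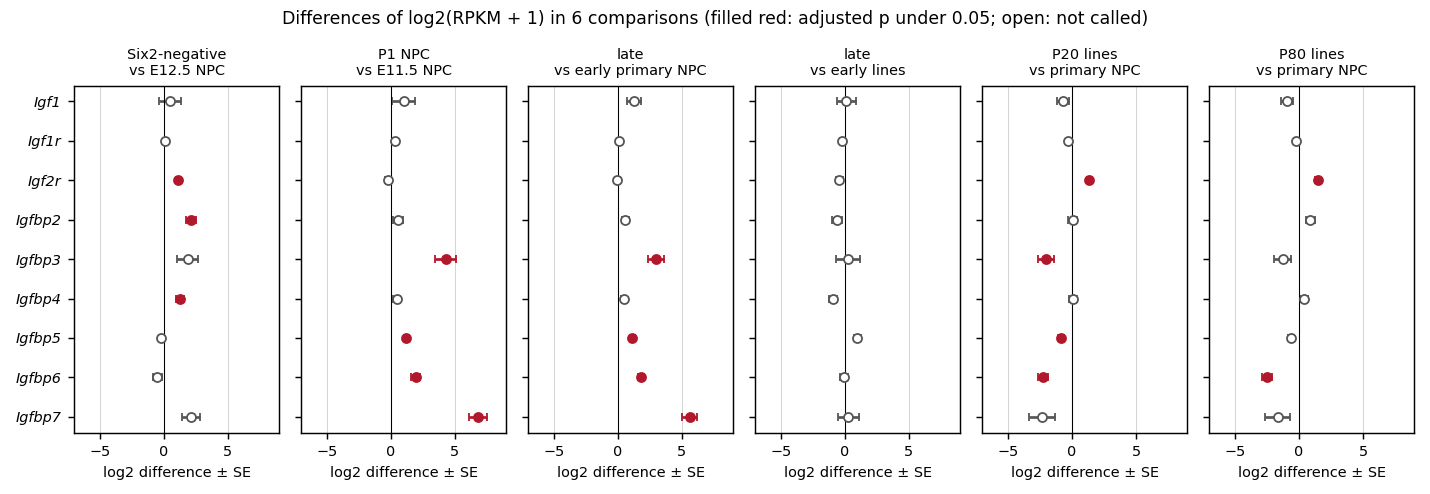
Differences of log2(RPKM + 1) with standard errors for the 9 genes in 6 comparisons, the first-named group minus the other; filled red points passed an adjusted p under 0.05. Igfbp7 lies at 6.81 in P1 over E11.5 NPCs and at 0.27 in lines of late over early origin, and Igf2r lies at 1.34 and 1.45 in P20 and P80 lines.

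The rise of binding proteins with age at isolation was compared between lines and primary NPCs, with E16.5 and P1 as late and E11.5 and E13.5 as early ages. In primary NPCs 4 of 9 members were called, all higher in late cells, where 24.7% of 13612 genes were called and 15.2% higher. They were Igfbp7 (5.61 ± 0.57), Igfbp3 (2.98 ± 0.65), Igfbp6 (1.81 ± 0.24) and Igfbp5 (1.11 ± 0.19), with adjusted p of at most 0.013. With the marker-rich libraries left out, Igfbp3 lost its call (2.10, adjusted p = 0.0573) and the other 3 kept theirs. Igf1 was called without E16.5 library 2 (1.62, adjusted p = 0.0311), and Igfbp2 without P1 library 1 (0.82, adjusted p = 0.0301). In lines, where each origin class holds 2 lines averaged over passages and 0.0441% of genes were called, limma called 0 members. At an unadjusted p under 0.05 there were 2, Igfbp5 (0.98 ± 0.27, adjusted p = 0.274) and Igfbp4 (-0.92 ± 0.29, adjusted p = 0.365), and 1158 of 13612 genes. Igfbp7 averaged 4.26 ± 0.31 RPKM in late and 4.01 ± 3.18 RPKM in early lines (SD, n = 4 libraries of 2 lines each).

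The difference between the age effects was tested directly. It was called for 0.713% of genes, 0.58% lower in lines, and for 1 of 9 members, Igfbp7, whose age difference was smaller in lines by 5.34 ± 0.99 on the log2 scale (-5.34, adjusted p = 0.0425). That call was lost in 9 of 12 fits that left out 1 library or line, with adjusted p up to 0.22 without the E16.5 line, and the estimate stayed between -5.60 and -5.07 in the 9. With the marker-rich libraries left out it was -4.46 (adjusted p = 0.0335). For Igfbp6 the difference was -1.90 ± 0.41 (adjusted p = 0.067) and for Igfbp3 -2.76 ± 1.13 (adjusted p = 0.243), and neither passed, nor did Igfbp4 (-1.36 ± 0.36, adjusted p = 0.106) or Igfbp2 (-1.21 ± 0.47, adjusted p = 0.226). Without E16.5 library 2, Igfbp3 (-3.54), Igfbp4 (-1.49) and Igfbp6 (-2.17) were called, and Igfbp4 was also called without the P1 line (-1.80). For Igfbp5 it was under 0.3 in size. Igfbp5 had 93.5 and 91.1 RPKM in the E16.5 line and 47.9 and 78.5 in the P1 line, against 61.9 and 38.7 in the E13.5 line and 43.5 and 19.2 in the E11.5 line, at P80 and P20 in each.

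Removal of BMP7, CHIR or LIF went with higher levels of several members than removal of heparin or Y27632. These libraries have no replicates, so differences are given without a test, as log2(RPKM + 1) minus the mean of heparin and Y27632 withdrawal on the same day. A member is called here where this is at least 1 in size in the same direction on both days, or on day 8 for LIF. Without BMP7, Igf1, Igfbp3 and Igfbp5 were higher, 3 of 9 members, where 8.64% of 12189 genes were past this size and 4.88% were higher. Without CHIR the same 3 and Igfbp2 were higher, 4 of 9 members, where 2.74% of genes were past it and 1.76% were higher. Without LIF, Igfbp2, Igfbp6 and Igfbp7 were higher, 3 of 9 members, where 9.24% of genes were past it and 5.22% were higher. The 3 components share the heparin and Y27632 libraries.

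Igf1 had 18.3 and 14.5 RPKM on days 4 and 8 without BMP7 and 4.37 and 27.4 RPKM without CHIR, against 0.154 and 0.349 without heparin and 0.0756 and 0.147 without Y27632. These 4 libraries are above all others of the cultures, and LIF withdrawal had 0.526 RPKM. The log2 differences were 4.12 and 3.64 without BMP7 and 2.27 and 4.51 without CHIR, while heparin and Y27632 withdrawal differed from each other by 0.10 and 0.23. Igfbp3 had 79.0 and 102 RPKM without BMP7 and 22.4 and 37.0 RPKM without CHIR, against 2.92 and 4.36 without heparin and 3.62 and 3.07 without Y27632. Its differences were 4.23 and 4.47 without BMP7 and 2.46 and 3.03 without CHIR. Without LIF it had 1.57 RPKM, the lowest of the 9 withdrawal libraries. That difference was -0.86, short of the size set, and -1.17 with a pseudocount of 0.1, past it.

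Igfbp5 had 334 and 446 RPKM without BMP7 and 329 and 265 RPKM without CHIR, against 73.9 and 82.3 without heparin and 38.4 and 31.8 without Y27632. Heparin and Y27632 withdrawal themselves differed by 0.93 and 1.34 for this gene, so the differences of 2.62 and 3.10 without BMP7 and 2.60 and 2.35 without CHIR rest on a comparison that is not uniform. The BMP7 and CHIR values were above those of the other 5 withdrawal libraries. Igfbp5 had 95.8 RPKM without LIF (0.89).

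Igfbp2 separated BMP7 withdrawal from the other components. It had 77.2 and 125 RPKM without BMP7, 711 and 688 RPKM without CHIR and 1167 RPKM without LIF, against 285 and 225 without heparin and 258 and 198 without Y27632. The differences were -1.80 and -0.75 without BMP7, 1.39 and 1.701 without CHIR and 2.46 without LIF. Day 8 without BMP7 fell short of the size set, so Igfbp2 was not called lower there. Igfbp2 and Igfbp5 face each other on opposite strands of chromosome 1, 5.5 kb apart in the annotation of mm9, with Igfbp2 at chr1:72871077-72899048 and Igfbp5 at chr1:72904506-72921458. These neighbours went in opposite directions without BMP7 and in the same direction without CHIR.

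Igfbp7 had 38.6 RPKM without LIF and 10.4 and 23.4 RPKM without CHIR, against 3.12 and 3.39 without heparin and 9.18 and 5.33 without Y27632. Its difference was 2.91 without LIF and 0.81 and 2.21 without CHIR. On day 8, the only day of LIF withdrawal, both were past the size set, and CHIR withdrawal fell short on day 4. Heparin minus Y27632 withdrawal was -1.30 on day 4 and -0.53 on day 8 for Igfbp7, so this comparison is not uniform either. Igfbp6 had 6.92 RPKM without LIF (1.12) and 0.839 and 0.945 RPKM without BMP7 (-1.02 and -0.91), against 2.41 to 2.91 RPKM without heparin or Y27632. With a pseudocount of 0.1 Igfbp6 was past the size set on both days without BMP7 (-1.597 and -1.39). Igfbp4, already the most abundant, had 1154 and 977 RPKM without BMP7, 739 and 1515 without CHIR and 901 without LIF, against 611 and 572 without heparin and 544 and 501 without Y27632. Its differences were 1.00 and 0.87 without BMP7 and 0.36 and 1.498 without CHIR, so 1 day of each fell short. With quantile scaling both days without BMP7 were past it (1.07 and 1.05). Igf2r differed by 0.79 on both days without BMP7 and by 0.54 and 0.67 without CHIR. Igf1r differed by 0.47 and 0.67 without BMP7 and by under 0.3 in size without CHIR or LIF.

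**Figure D4:**
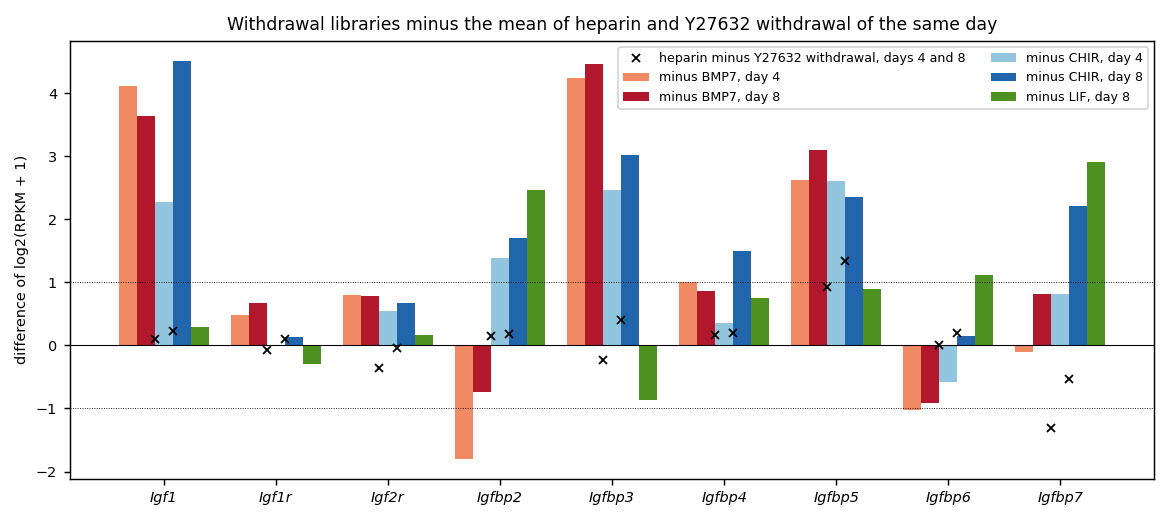
Difference of log2(RPKM + 1) of each gene without BMP7, CHIR or LIF from the mean of heparin and Y27632 withdrawal of the same day (bars, 1 library each), with crosses for heparin minus Y27632 withdrawal on days 4 and 8 and dotted lines at 1 and -1. Igf1, Igfbp3 and Igfbp5 are over 2 without BMP7 and without CHIR, and Igfbp2 is below 0 without BMP7 and over 1 without CHIR or LIF.

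Day 8 and day 4 were compared across heparin, Y27632, BMP7 and CHIR withdrawal with the component as a block. limma called 0 of 9 members and 0.0331% of 12094 genes. At an unadjusted p under 0.05 there were 0 members and 2935 genes. Markers of other cells also differed between these cultures. The stromal sum was 305 and 393 RPKM without BMP7, 229 on each day without CHIR and 191 without LIF, against 97.3 to 147 without heparin or Y27632. The endothelial sum was 74.8 and 108 RPKM without BMP7, 236 and 274 without CHIR and 328 without LIF, against 89.4 to 104. The podocyte sum (5 genes) was 139 and 89.2 RPKM without BMP7, 57.6 and 122 without CHIR and 46.1 without LIF, against 21.6 to 28.3. Of 9 stromal markers over the RPKM minimum, 4 were past the size set and higher and 1 lower without BMP7, 4 were higher without CHIR and 5 without LIF. Foxd1 had 2.28 and 3.51 RPKM without BMP7 and at most 0.316 in the other 7 libraries, while Pdgfrb was highest without CHIR, at 90.5 and 108 RPKM. Pdgfra had 12.4 and 9.23 RPKM without BMP7, 0.456 and 4.05 without CHIR and 5.41 without LIF, against at most 0.515 without heparin or Y27632. Most of the stromal sum without BMP7 was Col3a1, at 176 and 241 RPKM, against 2.72 to 4.05 without heparin or Y27632. Col1a1 was lower without BMP7, at 1.37 and 1.83 RPKM, against 7.64 to 16.4. Tcf21 had 33.5 and 44.3 RPKM without BMP7 and 36.7 and 16.54 without CHIR, against 50.6 to 73.7. Of 3 endothelial markers over the minimum, Emcn was past the size set and higher without all 3 components, Plvap higher without CHIR or LIF and lower without BMP7, and Egfl7 was not past it. Emcn reached 112 RPKM without CHIR, and Kdr had 7.21 RPKM without LIF and at most 0.418 in the other 8 libraries. Cdh5, Tek, Pecam1, Tie1 and Cldn5 had at most 0.186 RPKM in all 9. Of the podocyte markers, Nphs1 and Podxl had at most 0.189 RPKM in all 9. The macrophage genes Cx3cr1, Ptprc and C1qa were listed at 0 in all 9. The part of stromal, endothelial and podocyte transcripts in the binding protein values was not tested. The cap mesenchyme sum was 462 and 392 RPKM without BMP7, 877 and 329 without CHIR and 514 without LIF, against 638 to 731.

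Of 43 other genes of the pathway, chosen as ligand, receptor, protease, adaptor and signalling genes of the IGF system, 11 of 37 tested were called at P20, 5 higher and 6 lower, where 36.1% of all genes were called, and 13 of 37 at P80, 6 higher and 7 lower, where 39.3% were. These counts lie below the share over all genes. Their median log2 differences were -0.06 and 0.02, against -0.11 over all genes in each case. Stc2 and Stc1 encode stanniocalcins, which inhibit the protease PAPP-A that cleaves IGFBP4 and IGFBP5. Stc2 averaged 29.6 ± 3.16 RPKM at P80 and 38.3 ± 4.56 at P20 (SD, n = 4 each), against 1.54 ± 0.362 in primary NPCs (n = 8), and Stc1 32.9 ± 6.59 and 24.2 ± 7.81, against 8.64 ± 4.26. Their differences were 3.60 ± 0.13 and 3.96 ± 0.13 for Stc2 and 1.97 ± 0.31 and 1.51 ± 0.31 for Stc1, with adjusted p of at most 0.00222. Pappa, the gene of that protease, named here after its values were seen, was at most 0.00771 RPKM in lines, with 5 of 8 listed at 0, against 0.0900 to 0.586 RPKM in primary NPCs. All these values are under the 1 RPKM of the filter, so Pappa was not tested.

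Several pathway genes called in lines encode proteins that act inside the cell. Eif4ebp1, a repressor of translation controlled by mTOR, averaged 220.5 ± 24.7 RPKM at P80 and 291.5 ± 62.7 at P20, against 101.1 ± 16.2 in primary NPCs, and rose at both passages (1.13 ± 0.14 and 1.51 ± 0.14). Igf2bp3, an mRNA-binding protein of the Igf2 message that is no IGF carrier, fell at both (-2.87 ± 0.43 and -2.65 ± 0.43), although the E11.5 line kept 5.49 RPKM at P80 and 13.9 at P20, against 0.383 to 0.728 in the other 6 line libraries. Pik3r1, the regulatory subunit of PI3 kinase, rose at P80 (0.70 ± 0.22), and Shc1, an adaptor, rose at P20 (0.60 ± 0.07). These calls had adjusted p of at most 0.0237.

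With age, 16 of 38 pathway genes tested were called between P1 and E11.5 NPCs, 7 higher and 9 lower, where 35.1% of all genes were called. The ligand gene Igf2 fell to 149 and 202 RPKM at P1, against 514 and 517 RPKM at E11.5 (-1.56 ± 0.26, adjusted p = 0.00425). The genes of 3 proteins that bind its message fell too, Igf2bp3 (-2.84 ± 0.30), Igf2bp1 (-2.37 ± 0.15) and Igf2bp2 (-1.19 ± 0.19). Stc1 fell (-1.92 ± 0.22) and Pik3r1 rose (1.20 ± 0.23), each of these 5 with an adjusted p of at most 0.00651. In Six2-negative cells against E12.5 NPCs 5 of 38 were called higher and 2 lower, where 13.6% of all genes were called. They included Pik3r1 (0.92 ± 0.23) and Shc1 (0.49 ± 0.12) higher and Stc1 (-1.66 ± 0.22) and the adaptor gene Grb10 (-0.74 ± 0.20) lower. Between E16.5 and E13.5 only Igf2bp1 was called (-1.18 ± 0.15, adjusted p = 0.0131).

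Without BMP7, 3 of 37 pathway genes were past the size set on both days, all higher, where 8.64% of all genes were. Without CHIR 0 were, where 2.74% of all genes were, and without LIF 2 were higher and 2 lower, where 9.24% were. The BMP7 and LIF counts are near the shares over all genes. Htra1 and Htra3 encode secreted serine proteases that cleave IGF binding proteins. Htra1 had 31.4 and 41.4 RPKM without BMP7 and 10.03 RPKM without LIF, against 1.78 and 2.42 without heparin and 2.79 and 2.70 without Y27632 (3.32 and 3.58 without BMP7, 1.63 without LIF). Htra3 had 8.45 and 12.3 RPKM without BMP7, against 3.00 to 4.13, and Igfbpl1, a gene named for its likeness to binding proteins, had 2.95 and 3.72 RPKM, against 0.336 to 0.722. Grb14, an adaptor that restrains insulin receptor signalling, had 26.6 RPKM without LIF, against 5.24 and 7.80 on day 8 (1.89). Stc2 was lower without LIF, at 1.63 RPKM, against 5.77 and 6.37 on day 8 (-1.43), and so was Igf2bp1 (-1.32).

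Genes whose log2 values followed each member most closely over the 20 poly(A) libraries were ranked by Pearson correlation among 10746 genes, as a description, since these libraries share groups and depth. For Igfbp3 they were Sparcl1 (r = 0.96), Tmem204 (0.95) and Eln (0.95), and for Igfbp7 Folr1 (0.95), Bicc1 (0.94) and Ogn (0.94). Igfbp4 was followed by Emilin1 (0.94), Gng8 (0.93) and Cd248 (0.93), Igfbp6 by Sost (0.96), Tmod1 (0.95) and Fam107a (0.95), and Igfbp2 by Anxa6 (0.91), Adcy6 (0.90) and Lix1l (0.89). Igf2r was matched by Mpp2 (0.97), Iffo2 (0.97) and Plin3 (0.97), and Igf1 by Rsad2 (0.96), Lyl1 (0.96) and the endothelial marker Tek (0.96). Igfbp5 had Sema3b (0.90), Pla2g16 (0.89) and Nudt6 (0.89), and the flat Igf1r had the weakest likeness, with Sh3gl3 (0.84), Mettl20 (0.82) and Smad5 (0.79). No p-value attaches to these rankings.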

How the data were processed

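Per the labels, polyadenylated RNA of 20 samples and total RNA of 9 withdrawal samples went into Illumina libraries. The values are RPKM as deposited by the authors in 1 table. STAR, Cufflinks and mm9 are named for the 20 samples, per the submitters' processing notes, without versions. For the 9 others neither is given in the sources used here, so differences were computed only among them, and ranges over all 29 libraries are descriptions. Of 23947 lines, 27 symbols that a spreadsheet had turned into dates and the last 2 lines were left out.

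Values were analysed as log2(RPKM + 1), a scale that understates changes of low genes, with limma 3.58.1 in R 4.3.3 (variance trend, two-sided tests, Benjamini-Hochberg adjustment over all genes with at least 1 RPKM in at least 2 libraries of the fit, threshold 0.05). The 12 sorted libraries were fitted by group. Lines and matched primary NPCs were fitted with age as a term, P80 and P20 lines with line as a block, and days of withdrawal with component as a block. Origin classes used 8 primary libraries and the 4 line averages. Only 42.3 to 51.6% of low values lay within 0.1 of whole reads, so no count test was run. The depth estimated from them gives counting error only. Scripts were tested on simulated data. The members, gene lists and tests were chosen with earlier results of these data known. All 9 members are named. Pathway genes are named by size, up to 6 per comparison among called genes with a group mean of at least 5 RPKM. A pathway gene that this rule names is not reported here. Other pseudocounts, scalings, filters, blocks and left-out libraries were tried as alternatives. Leaving out the 3 marker-rich libraries and comparing within library sets were chosen after seeing the data.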

Additional observations from a re-analysis of the deposited data

Results flagged for a closer look

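In 18 groups of 4 line libraries, 3 had a sample far from the others, and chance flags about 1 in 20 groups. Igf1 in the P1 line was the highest at both passages, with 0.105 RPKM at P80 and 0.462 RPKM at P20, and its gap to the next line made up 0.929 and 0.878 of the group's range. Igfbp7 in the E13.5 line at P80 had 8.43 RPKM, with a gap of 0.842 of the range. These values rest on low expression, and the P1 line at P20 is the shallowest library, at 6.6 M reads.

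The difference of Igfbp7 between late and early ages of origin was smaller in lines than in primary NPCs by 5.34 on the log2 scale (-5.34 ± 0.99, adjusted p = 0.0425 by limma). All 4 late primary libraries were above all 4 early ones, while lines of late and early origin overlapped.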

How the results depend on the processing

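Of the members' values under the alternatives, 1484 kept direction and side of the threshold, 55 lost the call, 28 gained it, 7 reversed and 4 without a test moved across the size set. The 4 were Igfbp6 on day 8 without BMP7 (-1.39) and Igfbp3 without LIF (-1.17) with a pseudocount of 0.1, and, with quantile scaling without BMP7, Igfbp4 on day 8 (1.05) and Igfbp6 on day 4 (-0.99). The reversals were small differences between P1 and E16.5 NPCs, with Igf1 at 0.91 without E16.5 library 1 and 0.53 without P1 library 2 (range -1.81 to 0.91 over left-out libraries), Igfbp6 at -0.28 without E16.5 library 2 (-0.28 to 0.99), and Igfbp2 at 0.17 without P1 library 1 (-0.91 to 0.17) and 0.26 without the marker-rich libraries. Between days 8 and 4 of withdrawal, Igf1 was at -0.000144 without either CHIR library.

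For E16.5 over E13.5, members called were 1 with median-of-ratios scaling, 0 with no filter, 1 without the variance trend and 1 with the replicate block. With a pseudocount of 0.1, 130 genes were called. Between P80 and P20 1 gene was called with no replicate block, and between days 8 and 4 2 genes with no filter. For lines of late over early origin 17 genes were called with a pseudocount of 0.1, 23 with no filter and 22 without the trend. For the difference of lines and primary NPCs in the age effect, members called were 2 with a pseudocount of 0.1 (225 genes), 0 with quantile scaling (57 genes) and 0 with no filter. A pseudocount of 0.1 put 645 genes past the size set without CHIR and 1707 without LIF. Leaving out the marker-rich libraries gave 5 members and 3315 genes for Six2-negative cells, 3091 genes for P1 over E11.5, 1 member and 142 genes for P1 over E16.5, 1597 genes among ages, 2003 for late over early primary NPCs and 258 for the difference of age effects. Within the library set, P20 lines had 2 members and 1262 genes called.

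Leaving out 1 library or line in turn gave ranges of called members and genes of 1 to 4 and 400 to 2397 for Six2-negative cells, 4 to 4 and 1427 to 6376 for P1 over E11.5, 0 to 3 and 11 to 957 for E16.5 over E13.5, 0 to 1 and 154 to 3912 for P1 over E16.5, and 3 to 5 and 1231 to 5632 among ages. For lines they were 3 to 4 and 3742 to 5821 at P20, 2 to 3 and 3887 to 6564 at P80, and 0 to 0 and 1 to 2 for P80 over P20. They were 0 to 0 and 2 to 3 for day 8 over day 4, 4 to 5 and 1188 to 5561 for late over early primary NPCs, 0 to 0 and 4 to 217 for late over early lines and 0 to 4 and 8 to 871 for the difference. The causes were not tested, beyond the fewer samples of these fits.

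Library numbers were not taken to pair the sorted samples: the labels do not tie them to a shared litter or day, and deviations were correlated over 0.1 in only 7 of 15 pairs of groups, not in all (-0.109 to 0.374). With the replicate block, Igfbp7 in Six2-negative cells was called (2.11, adjusted p = 0.0208) and Igfbp5 of E16.5 over E13.5 was not (1.007, adjusted p = 0.0647). Quantile scaling moved the median of all genes to -0.11 for P1 over E11.5 (0.04 as deposited), -0.09 for E16.5 over E13.5 (0.03), -0.09 for late over early primary NPCs (0.04) and 0.12 for the difference (-0.01). The called genes split into 1651 higher and 2693 lower for P1 over E11.5 with quantile scaling (2369 and 2400 as deposited), 1339 and 2011 for late over early primary NPCs (2071 and 1296), 2235 and 2175 at P20 (1974 and 2942) and 2473 and 2565 at P80 (2083 and 3268). Depth limits Igf1 and Igfbp6 in lines, and the withdrawal libraries have no replicates.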
